A study of Homo sapiens with 16 samples.

Results

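Expression of 10 cadherin genes was described in SH-SY5Y cells, a human neuroblastoma line with neuron-like properties, during differentiation on culture plates and on conductive films. The genes were CDH2, CDH4, CDH6, CDH7, CDH8, CDH10, CDH11, CDH12, CDH13 and CDH18. They are part of the cadherin family and were chosen with earlier results of these data known. All 10 were matched by their Ensembl identifiers among the 69222 gene rows of the count table. Other classical cadherins are described further below. The study held 16 libraries of polyadenylated RNA in 8 groups of 2. The first group was grown untreated on plates and the second was differentiated on plates. The other 6 groups were differentiated on a polymer and reduced graphene oxide composite, P(rGO), on the conducting polymer blend PEDOT:PSS, or on indium tin oxide, ITO, each without and with electrical stimulation (ES).

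Serum was stepped down to 5% (day 2), to 2.5% (day 3) and finally to 1% (day 5). Retinoic acid at 10 µM was present between days 3 and 6 and was followed by 4 days of brain-derived neurotrophic factor at 50 ng/mL. The stimulated cultures received square pulses at 1 Hz with a peak-to-peak amplitude of 0.1 V, 8 h each day, during those closing 4 days. The films carried poly-L-lysine and laminin, both of which hold cells to a surface, and the labels do not state a coating for the plates. A difference between films and plates therefore cannot be told apart from a difference in coating. Whether the 2 libraries of a group stem from different cultures is not stated in the labels, and every p-value reflects the spread among libraries that may be technical copies.

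Classical cadherins are calcium-dependent adhesion proteins that span the membrane and bind mainly the same or a closely related cadherin on the neighbouring cell. Their cytoplasmic tails bind beta-catenin and p120-catenin, and alpha-catenin links the complex to actin. In the nervous system they take part in the sorting of neurons, in neurite growth and in the assembly of synapses. The type I members here are CDH2, known as N-cadherin, and CDH4, known as R-cadherin. CDH6, CDH7, CDH8, CDH10, CDH11, CDH12 and CDH18 belong to type II, and CDH11 is also known from osteoblasts and mesenchymal cells. CDH13, or T-cadherin, is held in the membrane by a lipid anchor and lacks the cytoplasmic tail, so it is classed as an atypical member.

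Each library held 15600410 to 20851000 reads assigned to genes. Levels are read counts scaled to library size (CPM, with the library sizes adjusted by edgeR's TMM method), and tests are edgeR's quasi-likelihood tests with Benjamini-Hochberg adjustment over the 18081 genes that passed the filter on low counts. A gene was called when its adjusted p was at most 0.05. Mitochondrial genes took 4.58% to 8.58% of the assigned reads. Of 10 genes that mark the adrenergic state of neuroblastoma, 9 were above 1 CPM in the untreated group and 8 in each differentiated group, and TH, the first enzyme of catecholamine synthesis, was at 0.723 to 4.95 CPM as group means. CHGA was listed at 0 in all 16 libraries, and so were genes that every cell uses, such as RPS18 and EIF5A. A gene listed at 0 here can therefore not be read as not transcribed.

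Of the 10 cadherin genes, 2 supplied nearly all reads. Over the 16 libraries together CDH2 had 117026 reads and CDH11 had 84906. CDH8 had 75 reads, CDH4 had 34, CDH18 had 10, CDH7 had 4, CDH6 had 2 and CDH13 had 1. CDH10 and CDH12 were listed at 0 in every library. Only 3 genes, CDH2, CDH11 and CDH8, passed the filter on low counts, and the other 7 were not tested.

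**Figure D1:**
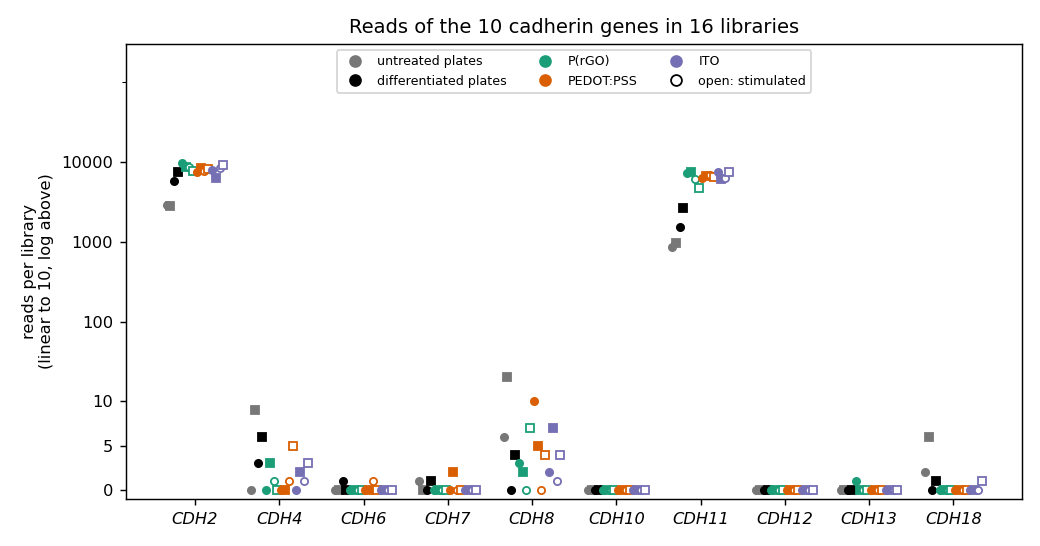
Reads per library (vertical axis, linear up to 10 and logarithmic above) for each of the 10 cadherin genes (horizontal axis), with 1 point per library, circles for replicate 1, squares for replicate 2, colours for the surface and open symbols for stimulated cultures. CDH2 and CDH11 stand far above the other 8 genes in all 16 libraries, and no other gene exceeds 20 reads in a library.

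The members lie on 4 chromosomes (GENCODE v29, GRCh38). CDH2 (ENSG00000170558.10) is at chr18:27950966-28177446 on the minus strand, and CDH7 (ENSG00000081138.14) is at chr18:65750252-65890341 on the plus strand. CDH11 (ENSG00000140937.14) is at chr16:64943753-65126112 and CDH8 (ENSG00000150394.14) at chr16:61647242-62037035, both on the minus strand, and CDH13 (ENSG00000140945.17) is at chr16:82626803-83800640 on the plus strand. CDH18 (ENSG00000145526.12, chr5:19472951-20575873), CDH12 (ENSG00000154162.15, chr5:21750673-22853622) and CDH10 (ENSG00000040731.10, chr5:24487100-24644978) are on the minus strand, and CDH6 (ENSG00000113361.13) is at chr5:31193750-31329146 on the plus strand. CDH4 (ENSG00000179242.16) is at chr20:61252426-61940617 on the plus strand. Annotated genes that share exonic bases with CDH2 and CDH11 had 24 and 90 reads in all, against their 117026 and 84906.

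The RefSeq promoter table (GRCh38.p14) matched 7 of the 10 genes, with 15 start sites. The 250 bases before the outermost RefSeq start are printed for CDH2 and CDH18. CDH2 had the most reads, and CDH18 is one of the 4 members on chromosome 5, all of which had few or no reads. CpG dinucleotides are in capitals, because their density is the feature by which vertebrate promoters are most often divided. The CDH2 window is chr18:28177131-28177380 and the CDH18 window is chr5:20575714-20575963, both read 5′ to 3′ on the minus strand. By the GENCODE positions above, the CDH2 window lies inside the gene and the CDH18 window lies partly inside it. The RefSeq and GENCODE annotations thus differ on where these genes start.
CDH2: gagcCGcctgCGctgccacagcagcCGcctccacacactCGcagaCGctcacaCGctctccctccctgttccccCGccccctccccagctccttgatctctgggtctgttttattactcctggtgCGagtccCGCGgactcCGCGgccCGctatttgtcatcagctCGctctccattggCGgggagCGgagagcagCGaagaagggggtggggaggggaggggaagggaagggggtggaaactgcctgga
CDH18: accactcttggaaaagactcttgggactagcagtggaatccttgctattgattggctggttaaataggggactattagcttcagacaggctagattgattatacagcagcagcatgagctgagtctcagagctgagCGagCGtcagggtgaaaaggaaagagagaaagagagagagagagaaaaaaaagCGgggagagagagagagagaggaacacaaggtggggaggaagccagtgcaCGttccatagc

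The CDH2 window held 17 CpG dinucleotides at a GC content of 66.0%, and the CDH18 window held 4 at 48.4%. Among the 35116 windows of the table the median was 11 CpG and 58.0% GC. A share of 39.0% of all windows held at least as many CpG as CDH2, and 34.3% held as few as CDH18 or fewer, so neither window is rare. The order did not follow the reads: the outermost RefSeq start of CDH8 had 19 CpG and CDH8 had 75 reads, and an inner CDH18 start had 15. By GENCODE that CDH8 window also lies inside its gene. The motif CACCTG, or CAGGTG on the other strand, is known to be bound by SNAI1 and its relatives. It was found at 1 of the 15 member starts, the outermost RefSeq start of CDH4. That window, chr20:61499171-61499420, lies inside the gene by the GENCODE positions above. The motif was present in 17.5% of all windows.

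Both CDH2 and CDH11 were about 2-fold higher after differentiation on plates. CDH2 was at 173 and 168 CPM in the 2 untreated libraries and at 312 and 378 CPM in the 2 differentiated plate libraries. The groups did not overlap, and the fold change was 2.03 (log2 1.02, SE 0.15, edgeR adjusted p = 0.000432, n = 2 against 2). CDH11 was at 50.9 and 58.6 CPM untreated and at 83.3 and 132 CPM on differentiated plates. Its groups did not overlap either, the plate libraries lay further apart than those of CDH2, and the fold change was 1.97 (log2 0.98, SE 0.20, edgeR adjusted p = 0.0032). The count was thus 2 of 10 members called, both higher, and only 3 of the 10 were tested. Of all 18081 tested genes 29.6% were called in this comparison. Among all tested genes, 11.7% had a higher log2 fold change than CDH2 and 12.4% a higher one than CDH11.

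The CDH11 call rested on plate replicate 2. Without that library the log2 fold change was 0.60 and the edgeR adjusted p was 0.0625. In a fit of only these 4 libraries neither gene was called, with edgeR adjusted p = 0.0849 for CDH2 and 0.133 for CDH11.

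**Figure D2:**
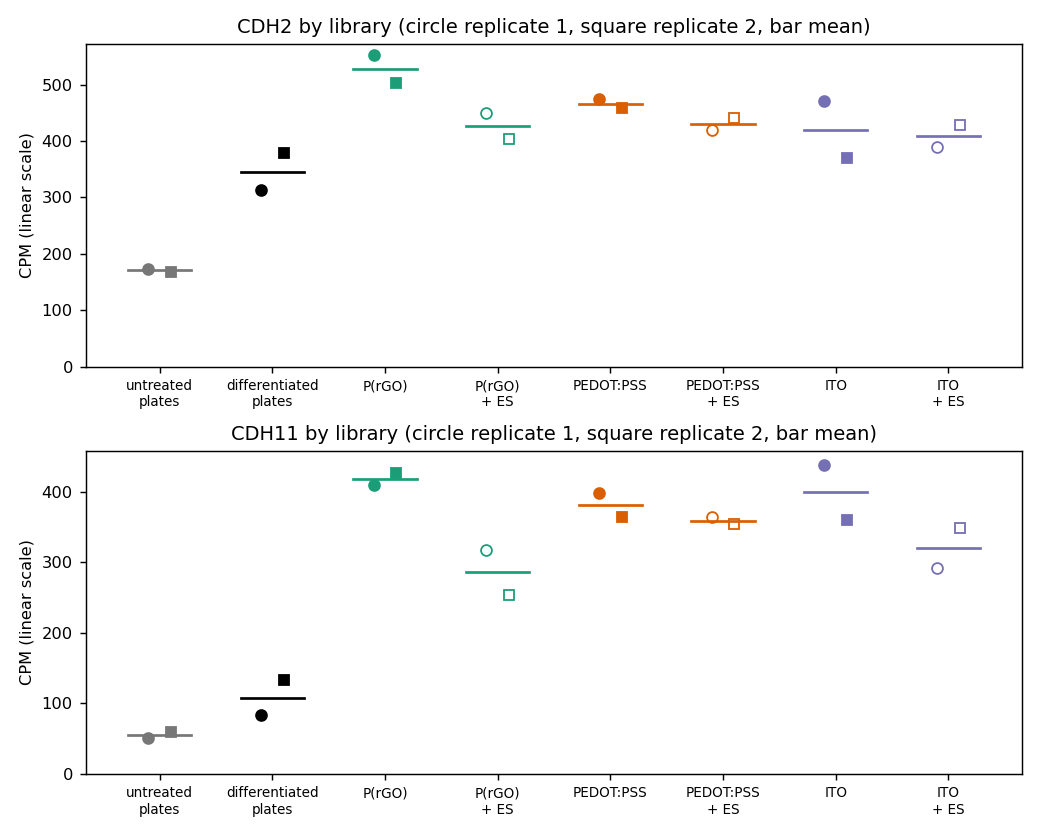
Levels of CDH2 (upper panel) and CDH11 (lower panel) in CPM on a linear axis from 0, by group, with circles for replicate 1, squares for replicate 2, open symbols for stimulated cultures and a bar at the mean of 2. CDH11 lies at 254 CPM or more in all 12 film libraries and at 132 CPM or less in all 4 plate libraries, while the lowest CDH2 film library, at 369 CPM, lies below the higher plate library, at 378 CPM.

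CDH11 was 3.54-fold to 3.88-fold higher on the unstimulated films than on plates under the same differentiation. It was at 410 and 427 CPM on P(rGO), 399 and 364 CPM on PEDOT:PSS and 439 and 361 CPM on ITO, against 83.3 and 132 CPM on plates. Every film library was above both plate libraries. The log2 difference from plates was 1.96 (SE 0.20, edgeR adjusted p = 0.000281) on P(rGO), 1.82 (SE 0.20, adjusted p = 0.00106) on PEDOT:PSS and 1.89 (SE 0.20, adjusted p = 0.000217) on ITO. By p-value CDH11 ranked 5 among the 18081 tested genes on P(rGO) and again on PEDOT:PSS, and 17 on ITO. These comparisons share the same 2 plate libraries and are not independent of each other.

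CDH2 differed less between films and plates. It was at 553 and 504 CPM on P(rGO), above both plate libraries, with a log2 difference of 0.61 (SE 0.15, edgeR adjusted p = 0.030, fold 1.53). On PEDOT:PSS it was at 474 and 459 CPM, also above both plate libraries, but the difference of 0.43 (SE 0.15) did not pass the test (edgeR adjusted p = 0.180, 95% interval 0.12 to 0.75). On ITO the libraries were at 471 and 369 CPM and overlapped the plates, and the difference was 0.28 (SE 0.15, edgeR adjusted p = 0.358, 95% interval -0.03 to 0.60).

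On P(rGO) 2 of the 10 members, of which 3 were tested, were called, both higher, where 4.63% of all tested genes were called. On PEDOT:PSS 1 of the 3 tested members was called against a background of 1.48%, and on ITO 1 of the 3 against 4.23%. The CDH2 call on P(rGO) lay near the threshold and was lost without plate replicate 1 (log2 0.48, edgeR adjusted p = 0.296), without P(rGO) replicate 1 (adjusted p = 0.230) or without P(rGO) replicate 2 (adjusted p = 0.106). It was also lost, with edgeR adjusted p between 0.0539 and 0.0542, without any 1 of the 4 PEDOT:PSS libraries, stimulated or not, and in the fit of only the groups compared (0.0673).

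The stimulated films also stood above the plates in CDH11. Its levels were 318 and 254 CPM on stimulated P(rGO), 364 and 354 CPM on stimulated PEDOT:PSS and 293 and 349 CPM on stimulated ITO. All 6 libraries exceeded both plate libraries, and the log2 differences were 1.41 (SE 0.20, edgeR adjusted p = 0.00621), 1.73 (SE 0.20, adjusted p = 0.00122) and 1.57 (SE 0.20, adjusted p = 0.00148) in that order. CDH2 was at 449 and 404 CPM, 419 and 441 CPM, and 389 and 428 CPM in the same groups. All 6 values were above the plates, but the log2 differences of 0.31, 0.32 and 0.24 did not pass the test (edgeR adjusted p = 0.340, 0.379 and 0.533).

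CDH11 was the 1 member called in each of these 3 comparisons, in which 1.68% of all tested genes were called on stimulated P(rGO), 1.25% on stimulated PEDOT:PSS and 2.18% on stimulated ITO. On stimulated P(rGO) the CDH11 call was lost without plate replicate 1 (log2 1.11, edgeR adjusted p = 0.0811) and without stimulated P(rGO) replicate 1 (log2 1.23, adjusted p = 0.0881).

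Against untreated cells the unstimulated films showed the widest range. CDH11 was 7.65-fold higher on P(rGO) (log2 2.93, SE 0.21, edgeR adjusted p = 2.65e-06), 6.97-fold on PEDOT:PSS (log2 2.80, SE 0.21, adjusted p = 5.2e-06) and 7.30-fold on ITO (log2 2.87, SE 0.21, adjusted p = 3.71e-06). CDH2 was 3.10-fold, 2.73-fold and 2.46-fold higher (log2 1.63, 1.45 and 1.30, edgeR adjusted p = 1.21e-05, 3.01e-05 and 5.53e-05). In each of these comparisons 2 of 10 members, of which 3 were tested, were called, both higher. The backgrounds were 35.6%, 31.4% and 35% of all tested genes. These comparisons combine differentiation with the surface.

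**Figure D3:**
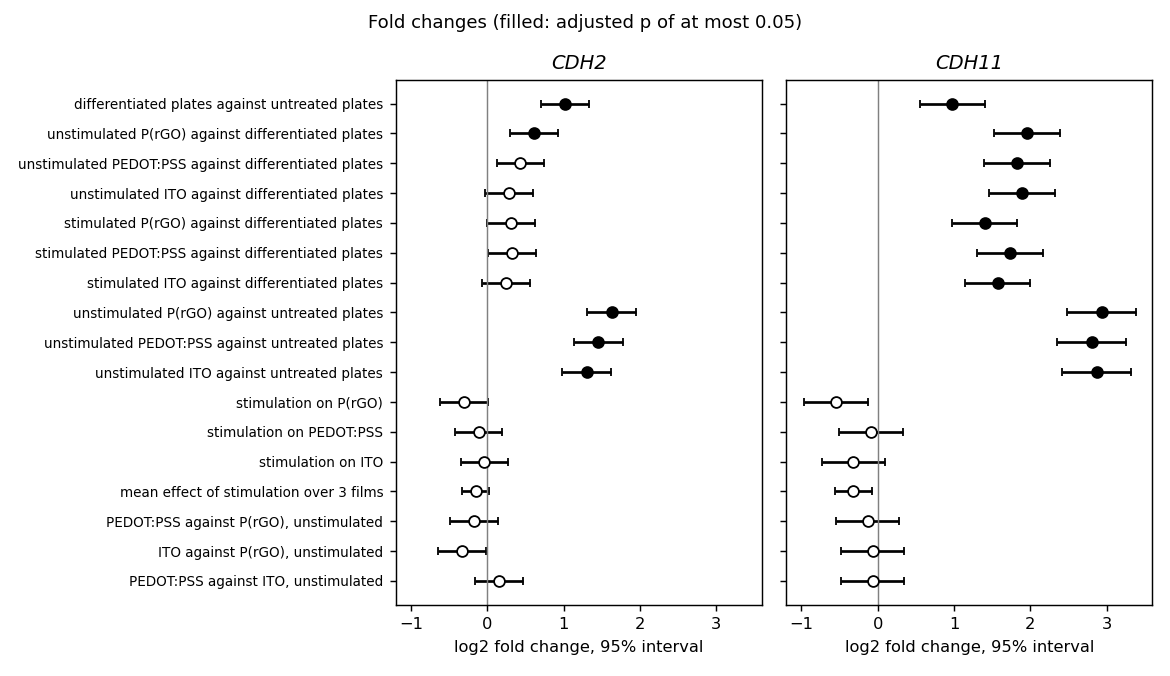
Log2 fold changes (horizontal axis) of CDH2 (left) and CDH11 (right) with 95% intervals for 17 comparisons (vertical axis), filled where the edgeR adjusted p was at most 0.05. CDH11 lies between 1.41 and 1.96 in the 6 comparisons of films with plates, all filled, while 1 of the 6 CDH2 values, 0.61 on P(rGO), is filled.

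The order of the group means of CDH11 was untreated plates (54.7 ± 5.44 CPM, SD, n = 2), differentiated plates (108 ± 34.7), stimulated P(rGO) (286 ± 45.7), stimulated ITO (321 ± 39.7), stimulated PEDOT:PSS (359 ± 7.10), PEDOT:PSS (382 ± 24.5), ITO (399.6 ± 55.2) and P(rGO) (418 ± 11.5). Untreated plates, differentiated plates and the lowest film group did not overlap. Among the films, stimulated P(rGO) overlapped stimulated ITO, and PEDOT:PSS, ITO and P(rGO) overlapped from neighbour to neighbour. Stimulated PEDOT:PSS lay 5.24 CPM above stimulated ITO and 0.35 CPM below PEDOT:PSS, without overlap. The higher stimulated PEDOT:PSS library, at 364 CPM, was however above the lower ITO library, at 361 CPM. For CDH2 the order was untreated plates (170.4 ± 3.17 CPM), differentiated plates (345 ± 46.5), stimulated ITO (409 ± 27.3), ITO (419.9 ± 71.5), stimulated P(rGO) (426 ± 32.4), stimulated PEDOT:PSS (430.0 ± 16.01), PEDOT:PSS (466 ± 10.6) and P(rGO) (528 ± 34.8). Stimulated ITO through stimulated PEDOT:PSS overlapped from neighbour to neighbour, and PEDOT:PSS and P(rGO) each lay above the group before them without overlap. PEDOT:PSS, at 459 to 474 CPM, did overlap ITO, at 369 to 471 CPM.

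Stimulation itself gave no call. CDH11 was lower in both stimulated libraries than in either unstimulated one on P(rGO), at 318 and 254 CPM against 410 and 427 CPM, with a log2 difference of -0.55 (95% interval -0.97 to -0.13, unadjusted p = 0.0136 and adjusted p = 0.807 by edgeR). The PEDOT:PSS groups came close, at 364 and 354 CPM stimulated against 399 and 364 CPM, a difference of -0.09 (95% interval -0.50 to 0.33). On ITO the stimulated libraries, at 293 and 349 CPM, were both below the unstimulated ones, at 439 and 361 CPM, a difference of -0.32 (95% interval -0.73 to 0.10). Averaged over the 3 films the CDH11 difference was -0.32 (SE 0.11, unadjusted p = 0.0132, adjusted p = 0.829 by edgeR), and the test of unequal effects between films gave an adjusted p of 1.

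For CDH2 the stimulation differences were -0.31 on P(rGO) (95% interval -0.62 to 0.00), -0.12 on PEDOT:PSS (-0.43 to 0.20) and -0.04 on ITO (-0.35 to 0.27), with a mean of -0.15 (SE 0.08, edgeR adjusted p = 0.912). None of the 10 members was called by edgeR or DESeq2 in these 5 tests, and 1 member, CDH11, had an unadjusted p under 0.05 by edgeR on P(rGO) and in the mean. The background was 0% of the 18081 tested genes by edgeR in each, with 986 genes on P(rGO), 126 on PEDOT:PSS, 293 on ITO, 1021 in the mean and 133 in the test between films at an unadjusted p under 0.05. DESeq2 called 13 genes on P(rGO), 8 in the mean and 0 in the other 3 tests.

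The 3 unstimulated films were not distinguished by any cadherin either. For CDH11 the log2 differences were -0.13 between PEDOT:PSS and P(rGO) (95% interval -0.55 to 0.28), -0.07 between ITO and P(rGO) (-0.48 to 0.35) and -0.07 between PEDOT:PSS and ITO (-0.48 to 0.35). For CDH2 they were -0.18 (-0.49 to 0.13), -0.33 (-0.64 to -0.02, unadjusted p = 0.0397) and 0.15 (-0.16 to 0.46). All adjusted p-values by edgeR were 1, 0 of 10 members were called by edgeR or DESeq2, and the background was 0% of tested genes in each comparison, with 243, 299 and 283 genes at an unadjusted p under 0.05 by edgeR. DESeq2 called 0, 0 and 2 genes.

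The balance of the 2 abundant cadherins differed between surfaces. There were 0.295 and 0.348 reads of CDH11 per read of CDH2 in the untreated libraries and 0.267 and 0.350 on differentiated plates. The 12 film libraries ran from 0.628 to 0.976 with a median of 0.809. No film library overlapped a plate library, and the untreated and differentiated plates covered nearly the same range. The ratio is a description of the same reads tested above and was given no test of its own.

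**Figure D4:**
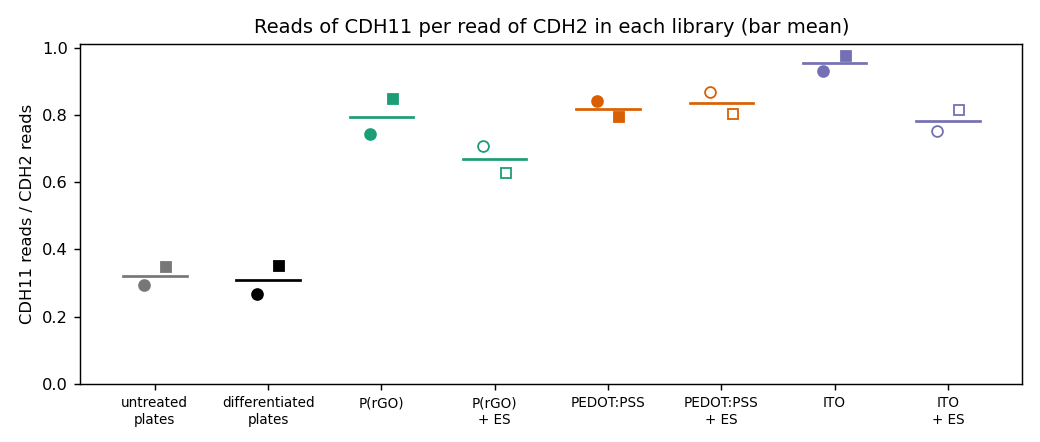
Reads of CDH11 per read of CDH2 in each library (vertical axis from 0) by group, with circles for replicate 1, squares for replicate 2, open symbols for stimulated cultures and a bar at the mean. The 4 plate libraries lie at or below 0.350 and the 12 film libraries at or above 0.628.

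Which of the pair was the more abundant depends on the length used. The annotated exons cover 4.95 kb in CDH2 and 13.381 kb in CDH11, much of the latter outside the coding part, and per exonic kb CDH11 stood at 0.232 to 0.361 of CDH2 in the film libraries. Their coding parts are close in length, 2816 and 2573 bases, and per coding base the same libraries gave 0.688 to 1.07. On untreated and differentiated plates CDH11 was below CDH2 on both scales, at 0.0987 to 0.130 per exonic kb and 0.292 to 0.383 per coding base. In CPM per exonic kb CDH2 went from 34.4 ± 0.641 in untreated cells to 107 ± 7.04 on P(rGO), and CDH11 from 4.09 ± 0.406 to 31.3 ± 0.863 (SD, n = 2).

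CDH8, a type II cadherin of brain circuits, had 6 and 20 reads in the untreated libraries and 0 and 4 on differentiated plates. The untreated libraries were higher than both plate libraries, but the fitted log2 change of -2.84 had an SE of 1.22 and did not pass the test (edgeR adjusted p = 0.0923). Without the filter on low counts the same comparison was called (adjusted p = 0.0161), and so it was without untreated replicate 1 (adjusted p = 0.0374). On the films CDH8 had 3 and 2 reads on P(rGO), 10 and 5 on PEDOT:PSS and 2 and 7 on ITO. With stimulation it had 0 and 7, 0 and 4, and 1 and 4 reads. The film libraries ranged from 0 to 10 reads and overlapped the plates, and no film comparison of CDH8 was called with the filter. Without it, P(rGO) against untreated cells was called (log2 -2.37, edgeR adjusted p = 0.0426).

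The other members gave too few reads for a comparison. CDH4 had 0 and 9 reads in untreated libraries, 3 and 6 on differentiated plates and 0 to 5 in the film libraries. CDH18 had 2 and 6 reads in untreated libraries, 1 in plate replicate 2 and 1 in stimulated ITO replicate 2, so 8 of its 10 reads came from untreated cells. The 4 reads of CDH7 were spread over untreated replicate 1, plate replicate 2 and PEDOT:PSS replicate 2, the 2 reads of CDH6 over plate replicate 1 and stimulated PEDOT:PSS replicate 1, and the single CDH13 read was in P(rGO) replicate 1. None of these 5 genes was tested for a difference between groups.

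Genes with the most similar profile over the 8 group means were found by the root mean square difference of centred log2 CPM among 12869 genes. For CDH11 they were OSBPL3 (0.08), an oxysterol-binding protein, B4GALT6 (0.15), a glycolipid galactosyltransferase, and LONRF2 (0.15). OSBPL3 had mean levels of 17.5 CPM in untreated cells, 33.3 CPM on differentiated plates and 123 CPM on P(rGO). For CDH2 the nearest were DKK3 (0.05), a secreted protein of the Dickkopf family, ATRNL1 (0.07) and CEP19 (0.08). For CDH8 the nearest, SMCO4, LDHB and PTMAP8, were at 0.27 to 0.29, further off than for CDH2 or CDH11. CDH2 and CDH11 were 0.60 apart, which put CDH2 at rank 340 for CDH11. These likenesses are over 8 groups and carry no test.

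Among 9 other classical cadherins, 4 passed the filter. On differentiation 2 of the 4 fell and none rose, with a median log2 change of -0.16 against -0.01 over all tested genes. Of all tested genes 15.8% were called lower and 13.8% higher in that comparison. CDH24, a type II cadherin, was at 71.7 ± 0.757 CPM untreated and 47.7 ± 8.67 on differentiated plates (SD, n = 2; log2 -0.59, SE 0.17, edgeR adjusted p = 0.0215). On the films it was lower still, at 20.6 ± 2.57 CPM on P(rGO) (log2 -1.21 against plates, adjusted p = 0.00233), 25.1 ± 2.92 on PEDOT:PSS (-0.93, adjusted p = 0.0179) and 27.7 ± 5.16 on ITO (-0.78, adjusted p = 0.0231). The calls of CDH24 were thus opposite in direction to those of CDH11 on differentiation and on the unstimulated films. On the stimulated films CDH24 was at 27.1 ± 0.695 CPM (P(rGO)), 28.7 ± 3.24 (PEDOT:PSS) and 31.2 ± 2.13 (ITO). None of the 4 tested was called on stimulated PEDOT:PSS or stimulated ITO against plates, where CDH11 was. CDH3, or P-cadherin, fell on differentiation (log2 -2.45, edgeR adjusted p = 0.0143), and this rested on untreated replicate 2, without which the log2 change was -0.49 (adjusted p = 0.520), and was also lost without plate replicate 1 (0.0811) or plate replicate 2 (0.0757) and with only the groups compared (0.181). The differentiation call of CDH24 was lost without plate replicate 2 (log2 -0.42, adjusted p = 0.193) and with only the groups compared (0.220), and its calls on PEDOT:PSS and ITO, unlike that on P(rGO), were lost without plate replicate 1 (adjusted p = 0.257 and 0.280), without either library of the film or with only the groups compared (0.0559 and 0.0851).

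Of 20 further members of the cadherin superfamily, protocadherins aside, 12 were tested, and 6 rose and 2 fell on differentiation (median log2 change 0.40), where 13.8% of all tested genes were called higher and 15.8% lower. CLSTN2, a calsyntenin of synapses, went from 30.9 ± 2.39 to 601 ± 199 CPM (log2 4.28, SE 0.36, edgeR adjusted p = 1.42e-05). FAT3, a giant cadherin, fell from 3.97 ± 2.52 to 0.317 ± 0.166 CPM (log2 -3.63, SE 0.76, adjusted p = 0.00382), a call lost without plate replicate 2 (adjusted p = 0.0592) and with only the groups compared (0.0624). None of the 12 was called on any unstimulated film against plates, where 4.63%, 1.48% and 4.23% of all tested genes were called and the list medians were 0.03 (P(rGO)), 0.01 (PEDOT:PSS) and -0.13 (ITO).

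Of 10 tested catenins and junction adaptors, the intracellular partners of cadherins, 3 fell on differentiation and none rose (median log2 change -0.27), a share near the 29.6% of all tested genes called there (15.8% lower). None was called on an unstimulated film against plates, which is also near the background of 4.63%, 1.48% and 4.23%. On the films their medians were 0.23, 0.21 and 0.20 against -0.02 over all tested genes. AJUBA, a LIM protein of junctions, fell from 8.22 ± 0.419 to 1.25 ± 0.0735 CPM (log2 -2.71, edgeR adjusted p = 0.000304), and VCL, encoding vinculin, from 116 ± 40.2 to 52.8 ± 9.90 CPM (log2 -1.13, adjusted p = 0.00162). The VCL call was lost with only the groups compared (adjusted p = 0.114). Beta-catenin, CTNNB1, named here for its role after its values were seen, was at 384 ± 65.3 CPM untreated, 306 ± 15.7 on differentiated plates and 337 ± 9.58 on P(rGO), and was not called in either comparison.

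Among 10 proteases and gamma-secretase parts that cut cadherins, 2 rose and 2 fell on differentiation (median log2 change 0.09), where 13.8% of all tested genes were called higher and 15.8% lower. ADAM9 fell by 1.37 on the log2 scale (edgeR adjusted p = 0.00145), and the call was lost with only the groups compared (0.0938). APH1B was higher by 0.55 (adjusted p = 0.0268), a call lost without plate replicate 2 (log2 0.31, adjusted p = 0.298), without untreated replicate 2 (0.0778), without the filter (0.0798) and with only the groups compared (0.338). None of the 10 was called on an unstimulated film, near the background of 4.63%, 1.48% and 4.23%. Of 6 tested transcription factors known mainly as repressors of CDH1, or E-cadherin, 3 fell on differentiation (median log2 change -1.18). Of all tested genes 15.8% were called lower in that comparison. CDH1 had 18 reads in all and was not tested, and a link of these factors to CDH2 or CDH11 was not tested either. SNAI1 was at 10.8 ± 4.19 CPM untreated and 0.655 ± 0.149 on differentiated plates (log2 -4.04, edgeR adjusted p = 3.82e-05), and TWIST1 at 651 ± 409 and 144 ± 20.1 CPM (log2 -2.17, adjusted p = 0.00036). The TWIST1 call was lost with only the groups compared (adjusted p = 0.068). SNAI1 was higher on ITO than on plates (log2 2.02, edgeR adjusted p = 0.0151), at 2.67 ± 1.01 CPM, a call lost without plate replicate 1 (adjusted p = 0.0987), plate replicate 2 (adjusted p = 0.0803) or ITO replicate 2 (adjusted p = 0.175) and with only the groups compared (0.0599).

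Among adhesion molecules of the immunoglobulin type ALCAM rose both on differentiation and on the films. Of 10 tested, 6 rose and 2 fell on differentiation (median log2 change 1.05), where 13.8% of all tested genes were called higher and 15.8% lower. On each unstimulated film 2 rose against plates, where 2.99% (P(rGO)), 1.02% (PEDOT:PSS) and 2.5% (ITO) of all tested genes were called higher. ALCAM, a neural and leukocyte adhesion protein, rose on differentiation (log2 1.33, SE 0.17, edgeR adjusted p = 0.000211) and was higher on P(rGO) (0.92, adjusted p = 0.00805), PEDOT:PSS (0.74, adjusted p = 0.0467) and ITO (0.72, adjusted p = 0.0303). With only the groups compared the call was lost for differentiation (adjusted p = 0.0779), PEDOT:PSS (0.146) and ITO (0.141). All 3 ALCAM film calls were lost without plate replicate 1, where the adjusted p was 0.103, 0.410 and 0.301, and they were lost without either library of the film concerned. In all, the call on PEDOT:PSS was lost in 14 and that on ITO in 9 of 21 alternatives. NRCAM, an L1-family protein of axons, was at 505 ± 44.4 CPM untreated and at 294 ± 1.58 CPM on differentiated plates. No test of that difference is given here. On the films NRCAM was at 536 ± 19.4 CPM on P(rGO), 499 ± 51.2 CPM on PEDOT:PSS and 646 ± 2.20 CPM on ITO (log2 0.87, 0.76 and 1.14 against plates, edgeR adjusted p = 0.00248, 0.0103 and 0.000427). The NRCAM call on PEDOT:PSS was lost without plate replicate 1 (adjusted p = 0.111), PEDOT:PSS replicate 1 (0.159) or PEDOT:PSS replicate 2 (0.0625) and with only the groups compared (0.0537). NCAM2 rose on differentiation (log2 3.05, adjusted p = 4.57e-05). Of 4 nectins, which are calcium-independent partners of cadherins at junctions, none was called on differentiation and NECTIN3 was higher on P(rGO) (log2 0.76, edgeR adjusted p = 0.0441), a call lost in 14 of 21 alternatives, among them the fit without plate replicate 1 (log2 0.48, adjusted p = 0.400).

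**Figure D5:**
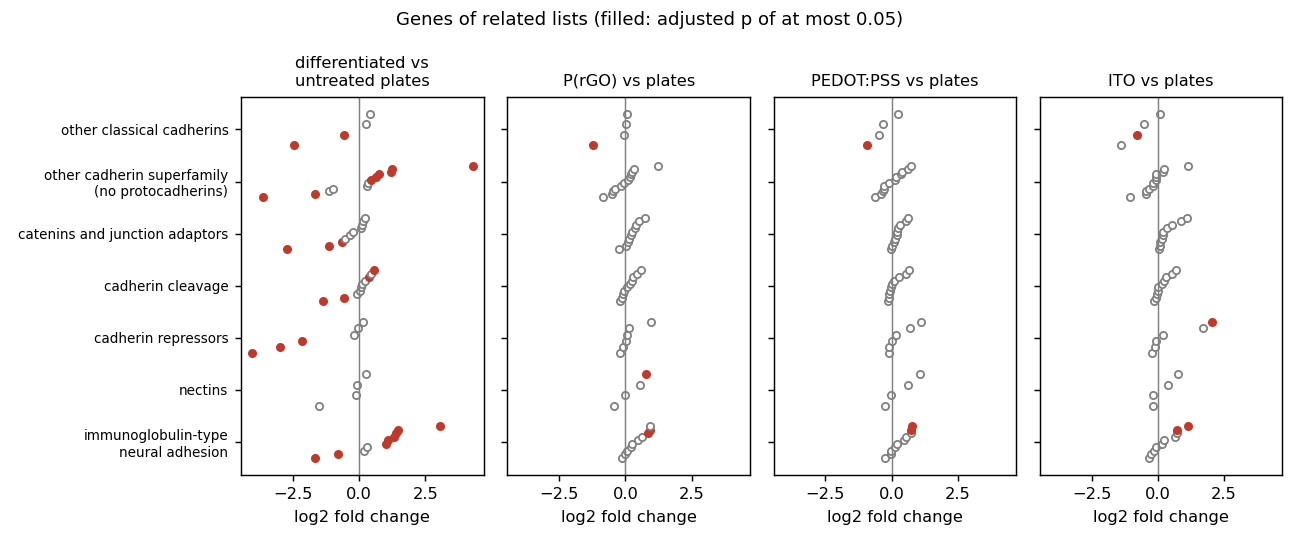
Log2 fold changes (horizontal axis) of the tested genes of 7 related lists (vertical axis), 1 point per gene, in 4 comparisons (panels), filled where the edgeR adjusted p was at most 0.05. The cadherin superfamily, catenin and cleavage lists have filled points on differentiation and none on the films, while the immunoglobulin-type list has 2 filled points on each film.

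Markers of other cell types were set beside these results, since in bulk RNA fewer cells of a type and less RNA per cell cannot be told apart. The summed level of 10 fibroblast genes was 424 to 637 CPM in untreated libraries, 221 to 252 CPM on differentiated plates and 195 to 334 CPM on films. PDGFRB, THY1 and PDGFRA made up most of the sum on plates. The median log2 difference of its 9 tested genes from plates was 0.95, 0.67 and 1.86 (P(rGO), PEDOT:PSS and ITO in turn), against -0.02 over all tested genes, with 2, 1 and 3 of the 9 called higher and 1 lower each time. The gene called lower was PDGFRA, a growth factor receptor, at 77.8 ± 30.9 CPM on plates and 18.1 ± 3.27, 26.2 ± 10.4 and 21.4 ± 1.08 CPM on the same films. LUM, encoding the matrix proteoglycan lumican, was called higher on all 3, at 2.42 ± 0.813 CPM on plates and 26.9 ± 2.24 CPM on P(rGO), 18.1 ± 0.328 CPM on PEDOT:PSS and 19.4 ± 6.08 CPM on ITO (SD, n = 2). The sum of 10 genes of the mesenchymal state of neuroblastoma was 925 to 1486 CPM untreated, 181 to 204 CPM on plates and 182 to 310 CPM on films, with TWIST1 at 144 CPM of it on plates. Its median log2 difference from plates was 0.14, 0.55 and 1.34 for the films in the same order, with 1, 0 and 3 of 9 tested genes called higher and none lower. NOTCH2, a Notch receptor called on P(rGO) and ITO, was at 22.4 ± 5.40 CPM on plates and 44.6 ± 5.96, 44.1 ± 9.18 and 55.9 ± 5.54 CPM on the 3 films. The defining factor PRRX1 had 1 read in all. The adrenergic list summed to 5476 to 5999 CPM untreated, 4051 to 4138 CPM on plates and 2896 to 3590 CPM on films. Lists for Schwann cells, epithelium and endothelium stayed at or below 18.3 CPM in sum. Cycling genes summed to 1381 to 1946 CPM untreated, 331 to 608 CPM on plates and 144 to 598 CPM on films, lowest on stimulated P(rGO). The part of these in the cadherin differences was not tested.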

How the data were processed

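Polyadenylated RNA of 16 libraries was made into strand-marking libraries and sequenced, per the labels' protocols. The authors deposited whole-number read counts per Ensembl gene. STAR, HTSeq, GRCh38.p13 and hg38 are named in the submitters' processing notes, and the versions and the strand setting are not given in the sources used here. The table holds 69222 gene rows and 5 summary rows, which were left out; reads in no annotated feature made up 5.58% to 10.0% of these together with the assigned and the ambiguous reads. Symbols matched 62686 identifiers.

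In R 4.3.3, edgeR 4.0.16 (filterByExpr over the 8 groups, TMM scaling, robust quasi-likelihood fit of 8 group means to all 16 libraries, 8 residual degrees of freedom) gave 18 comparisons, with Benjamini-Hochberg adjustment over 18081 genes and a threshold of 0.05. The standard error is the log2 fold change divided by the square root of F. The fit was also run on simulated data, and the outcome of that run is not reported here. Alternatives were DESeq2 1.42.0, a fit without the filter, a replicate block, RLE in place of TMM scaling, a fit of the compared groups alone, and 16 fits that each left out 1 library. Lengths and positions came from GENCODE v29.

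The members, 7 related lists (72 genes, 56 tested) and 54 markers were chosen with earlier results of these data known. All 10 members were described; of each list the 2 genes of smallest p in the first 4 comparisons were named if called, and for each tested member the 3 genes of most similar profile with at least 1 CPM.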

Additional observations from a re-analysis of the deposited data

How the results depend on the processing

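Each result was recomputed under 21 alternatives, 16 of which left out 1 library. CDH8 gave a value in only 20 of them, except for unstimulated PEDOT:PSS against untreated cells. The CDH11 calls on the 3 unstimulated films and on stimulated PEDOT:PSS and ITO against plates, and the calls of CDH2 and CDH11 on unstimulated films against untreated cells, held in all 21. With only the groups compared, which leaves 2 libraries a group to estimate the spread, the number of cadherins called went from 2 to 0 for differentiation and from 2 to 1 for P(rGO) against plates. Leaving out 1 library gave 1 to 3 calls for differentiation, 1 to 2 for P(rGO) against plates and 0 to 1 for stimulated P(rGO) against plates. CDH8 had 0 to 20 reads a library, and the 7 untested genes had 34 or fewer each in all.

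No called value of CDH2, CDH11 or CDH8 turned its direction. Some uncalled log2 differences did when 1 library was left out, and the cause was not tested. For CDH8 against plates they ran from -0.46 to 4.45 on P(rGO), -4.01 to 4.81 on stimulated P(rGO), -4.01 to 4.06 on stimulated PEDOT:PSS and -1.03 to 4.17 on stimulated ITO. CDH8 also ran from -1.50 to 0.33 for PEDOT:PSS against untreated cells, -4.46 to 1.33 for stimulation on P(rGO) and -0.27 to 1.46 for ITO against P(rGO). CDH2 ran from -0.20 to 0.15 for stimulation on ITO and -0.011 to 0.34 for PEDOT:PSS against ITO. CDH11 ran from -0.22 to 0.067 for ITO against P(rGO) and -0.20 to 0.086 for PEDOT:PSS against ITO.

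The main fit did not pair same-numbered libraries, because the labels do not state what they share. In the labels such libraries carry the same name prefix in all groups, and its meaning is not given. Their deviations correlated between -0.19 and 0.29 over 28 pairs of groups, with a positive median of 0.11. The mitochondrial share of reads was higher in the lower-numbered library of every group except stimulated PEDOT:PSS. A shared batch was not tested. With the replicate block the cadherins called stayed at 2 for differentiation and for P(rGO), and the number called was as in the main analysis in all 18 comparisons.

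Counts over all genes moved more. Against plates they were 838, 267 and 764 (P(rGO), PEDOT:PSS and ITO), with 1414, 644 and 1194 by DESeq2, 1625, 872 and 1430 without the filter, and 100 to 2147, 19 to 943 and 132 to 1707 with 1 library left out. For the stimulated films they were 303, 226 and 394, with 803, 633 and 682 by DESeq2, 1211, 896 and 1051 without the filter, and 1 to 1090, 16 to 858 and 46 to 980 with 1 library left out. With only the groups compared they were 320 for differentiation in place of 5353, 98 and 207 for stimulated P(rGO) and ITO against plates, 513 for ITO against plates, and 1632, 738 and 1389 for P(rGO), PEDOT:PSS and ITO against untreated cells in place of 6442, 5673 and 6320. With 1 library left out, differentiation gave 1767 to 8050. In the stimulation tests, where edgeR called 0, the fit without the filter called 168 on P(rGO), 3 on PEDOT:PSS, 18 on ITO, 137 in the mean and 13 between films, and between unstimulated films 16, 48 and 48.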
